A study of Rattus norvegicus with 3 samples.

Results

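TMC4 is 1 of the 16 cell types that the authors named among stromal cells of the rat thymus, and the genes that mark it here are Ccl21, Ccl19, Alk, Ncam2 and Tnfsf11. Its cells are those that carried the authors' cluster name TMC4 in the annotation of the stromal library. There were 1249 of them among 13226 annotated cells, or 9.44% (95% Clopper-Pearson interval 8.95 to 9.95%). They were compared with the other mesenchymal types of the same library: TMC1 (1377 cells), TMC2 (3080 cells), TMC3 (1152 cells), capFb (1358 cells) and the mural type vSMC/PC (452 cells). By its name capFb holds capsular fibroblasts, and vSMC/PC holds vascular smooth muscle cells and pericytes.

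The thymi came from 8-week-old Lewis rats, an inbred strain, with no treatment or engineered allele given in the labels. The study made 3 samples: a droplet library of stromal cells, a droplet library of thymocytes, and a Stereo-seq section 10 µm thick whose bins the authors labelled from reference cell types. For the stromal library, the enzymes Liberase TH and DNase I released the cells, and those lacking CD45, the surface protein of blood-derived cells, were taken by magnetic and then flow sorting. Each group was 1 sample, so no test could be run, a ratio has no replicate check, and all values describe this library and this section. Because the authors' clusters were made from the same genes, a gene that is higher in TMC4 than in another type is a description of the cluster and not independent evidence for it.

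The thymic medulla is where T cell precursors that have passed selection in the cortex finish maturing and are screened for reactivity to self. Chemokines of the ligand family of the receptor CCR7, Ccl19 and Ccl21, draw such cells into the medulla, and they are made by epithelial and by mesenchymal cells. Signals of the tumour necrosis factor family, such as lymphotoxin and RANKL (encoded by Tnfsf11), pass between lymphoid and stromal cells of the medulla and shape both.

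TMC4 summed to 11555688 unique molecular identifiers (UMIs, each standing for 1 captured RNA molecule). The median TMC4 cell had 8717 UMIs and 3369 genes, against medians of 6446 (vSMC/PC) to 11378.5 UMIs (capFb) in the 5 compared types. Levels are given as CPM, the UMIs of a gene per 1000000 UMIs summed over the cells of a type, and a ratio is a ratio of CPM. Intervals are exact 95% intervals that cover counting error only. Levels are compared between cell types for 1 gene at a time and not between genes.

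The cells carried their 5 markers at levels above all 5 compared types. Ccl21 stood at 22085 CPM in TMC4, at 11881 in vSMC/PC, at 4160 in TMC3, and at 85.7, 106 and 94.2 in TMC1, TMC2 and capFb. TMC4 was therefore 1.86-fold (1.84 to 1.88) above vSMC/PC, and Ccl21 was high in 3 of the 6 types and near 100 CPM or below in the others. Ccl19 had the same 3 types on top, with 13615 CPM in TMC4, 8828 in vSMC/PC, 3748 in TMC3, and 120, 78.3 and 60.7 in TMC1, TMC2 and capFb. The ratio to vSMC/PC was 1.54 (1.52 to 1.56), so that for both chemokines TMC4 led its nearest compared type by less than 2-fold. In the 16 annotated types TMC4 was highest for both, but types outside the comparison ranked above some compared ones. Ccl21 stood at 13158 CPM in the epithelial type TEC-d, above vSMC/PC, and at 5775 in the endothelial type Endo-2, above TMC3. Ccl19 stood at 3868 CPM in TEC-d, also above TMC3.

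Alk and Ncam2 separated TMC4 further from the compared types. Alk, a receptor tyrosine kinase best known from the developing nervous system, stood at 174 CPM in TMC4, 22.8 in vSMC/PC, 18.6 in TMC3, and 0.641, 0.525 and 0.371 in TMC1, TMC2 and capFb, a ratio to vSMC/PC of 7.63 (6.08 to 9.71). Ncam2, a neural cell adhesion molecule, stood at 230 CPM in TMC4, 34.4 in TMC3, 16.6 in vSMC/PC, 0.928 in capFb, 0.862 in TMC2 and 0.356 in TMC1, a ratio to TMC3 of 6.69 (5.99 to 7.48). In the 16 annotated types the epithelial type TEC-a came second for Ncam2, at 61.2 CPM, above TMC3. Tnfsf11, the cytokine RANKL, was sparse, with 186 UMIs in TMC4 (16.1 CPM) against 5.04 CPM in vSMC/PC, 2.46 in TMC3, 0.285 in TMC1, 0.0749 in TMC2 and 0.0619 in capFb. Its ratio to vSMC/PC was 3.19 (1.94 to 5.60), and with a mean level under 5 CPM over the 6 types it is not among the genes counted below.

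**Figure D1:**
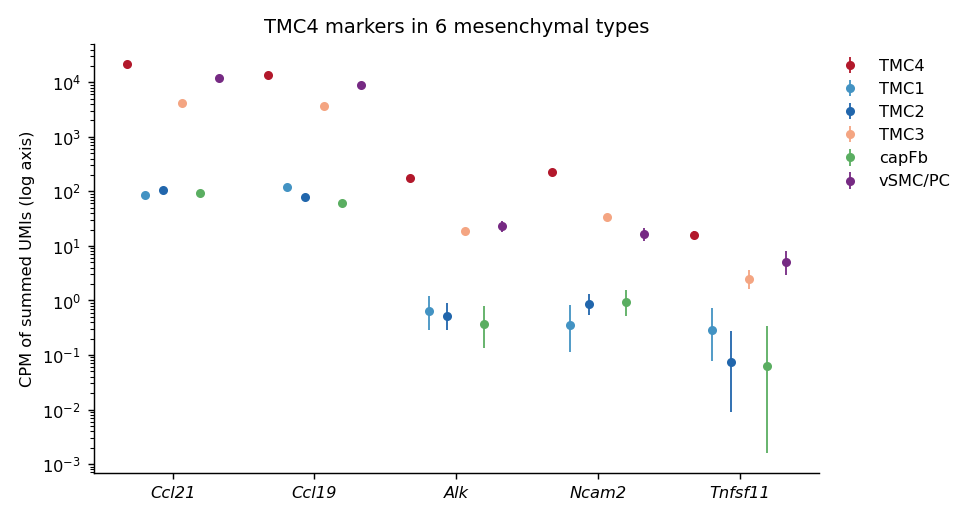
Level of Ccl21, Ccl19, Alk, Ncam2 and Tnfsf11 in TMC4 and the 5 compared types, in CPM on a log axis; points are the sum over all cells of a type and bars are exact 95% Poisson intervals for counting error. TMC4 is highest for each gene, with TMC3 and vSMC/PC between it and the other types (for Ccl21 22085 CPM in TMC4, 11881 in vSMC/PC and 4160 in TMC3).

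Free RNA in droplets gives UMIs of abundant genes to cells that do not make them, so the share of cells with a UMI is given beside myeloid cells, which have a median of 9510 UMIs. Ccl21 was seen in 88.9% of TMC4 cells and in 54.3% of myeloid cells, and after each cell was thinned to 2000 UMIs, in 75.2% and 17.5%. Alk was seen in 48.8% of TMC4 cells and 1.19% of myeloid cells, and after thinning in 23.5% and 0%. The thinned shares of Alk were 4.33% in vSMC/PC, 2.51% in TMC3 and at most 0.219% in the other compared types. Ncam2 was seen in 32.7% of TMC4 cells (19.0% thinned) against 1.58% of myeloid cells (0.844% thinned), and Tnfsf11 in 7.53% (2.26% thinned) against 0.990% (0.211% thinned). Thinning kept 1240 TMC4 cells and left out 9 shallower ones, and it left out 1 capFb, 7 TMC1, 11 TMC2, 38 TMC3, 13 vSMC/PC and 31 myeloid cells.

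The 250 bases before the start of 4 of these marker genes are shown because they are the stretch next to where each transcript begins, and the 2 chemokine genes can be read against each other. They were read from RefSeq on the build GRCr8, which is not the build mRatBN7.2 named in the submitters' processing notes. Each runs 5′ to 3′ on the gene's own strand and ends at the base before the start. Capitals mark 3 motifs searched on both strands: the letters CATAAAT, the core of a TATA box written TATAAA, and GGGNNNNNCC, a loose form of the site that NF-kB factors bind, which can overlap itself.
Ccl21: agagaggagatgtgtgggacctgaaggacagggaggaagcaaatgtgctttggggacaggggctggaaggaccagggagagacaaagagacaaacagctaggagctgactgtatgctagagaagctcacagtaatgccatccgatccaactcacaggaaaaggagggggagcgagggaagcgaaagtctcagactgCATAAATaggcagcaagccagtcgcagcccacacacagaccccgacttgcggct
Ccl19: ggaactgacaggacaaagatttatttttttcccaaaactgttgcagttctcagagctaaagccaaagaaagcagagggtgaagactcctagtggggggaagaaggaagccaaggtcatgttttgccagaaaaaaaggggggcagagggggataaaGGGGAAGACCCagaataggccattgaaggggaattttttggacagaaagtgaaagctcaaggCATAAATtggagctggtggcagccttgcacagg
Alk: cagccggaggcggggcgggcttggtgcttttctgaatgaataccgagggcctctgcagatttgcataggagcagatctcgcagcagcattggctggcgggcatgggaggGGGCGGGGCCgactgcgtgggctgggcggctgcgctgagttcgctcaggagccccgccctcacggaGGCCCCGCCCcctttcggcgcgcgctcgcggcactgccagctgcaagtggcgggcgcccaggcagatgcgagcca
Tnfsf11: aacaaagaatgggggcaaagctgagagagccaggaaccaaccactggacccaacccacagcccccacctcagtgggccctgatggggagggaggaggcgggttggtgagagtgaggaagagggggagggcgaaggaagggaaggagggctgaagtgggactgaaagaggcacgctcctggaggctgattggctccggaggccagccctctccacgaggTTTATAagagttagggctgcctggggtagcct
The window of Ccl21 is at chr5:61777516-61777765 on the minus strand, and that of Ccl19 at chr5:61761165-61761414 on the minus strand. The window of Alk is at chr6:28631227-28631476 on the plus strand, and that of Tnfsf11 at chr15:60114480-60114729 on the minus strand.

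Both chemokine windows hold CATAAAT on the gene's strand, 54 to 48 bases before the start in Ccl21 and 33 to 27 bases before it in Ccl19. CATAAAT was chosen after the sequences were read and occurs in 2.85% of the 33469 RefSeq windows of the same length. TATAAA, found in 12.9% of windows, is in the Tnfsf11 window on the other strand, 32 to 27 bases before the start. GGGNNNNNCC is in 42.3% of windows. It occurs as 3 overlapping matches at 95 to 85 bases before the start of Ccl19, 2 on the gene's strand and 1 on the other, and as 2 matches in Alk, at 141 to 132 and 75 to 66 bases before the start, and these letters are not in the Ccl21 and Tnfsf11 windows. In the GRCr8 gene table Ccl21 and Ccl19 are close neighbours, with 1 protein-coding gene listed between them.

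Across the genome, 11166 genes had a mean of at least 5 CPM over the 6 types, and a gene was called where TMC4 differed at least 2-fold. TMC4 was above all 5 compared types for 174 genes (1.56%) and below all 5 for 293 genes (2.62%). By at least 4-fold, 30 genes were above and 127 below. Which side is larger depends on the minimum level: with none, 1244 genes were at least 2-fold above all 5 types and 710 below. The 4-fold counts were made with the minimum of 5 CPM only. For 127 of the 174 genes the next type was TMC3, for 42 it was vSMC/PC, for 4 capFb, for 1 TMC2 and for none TMC1.

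The pairwise counts put TMC3 closest to TMC4. Against TMC3, 319 genes (2.86%) were at least 2-fold higher in TMC4 and 708 (6.34%) lower. Against vSMC/PC, 948 (8.49%) were higher and 907 (8.12%) lower, and against TMC1, 1254 (11.2%) and 1057 (9.47%). Against TMC2, 1185 (10.6%) were higher and 953 (8.53%) lower. Against capFb, 1826 (16.4%) were higher and 1050 (9.40%) lower, against 1439 and 1372 with size factors in place of totals. Which side is larger depends on scaling for 3 types: size factors gave 1116 higher and 1175 lower against TMC1 and 1045 and 1063 against TMC2, and totals without mitochondrial, ribosomal protein and haemoglobin genes gave 949 and 995 against vSMC/PC. TMC3 lay between TMC2 and TMC4 for 475 of the 497 genes that were at least 4-fold higher in TMC4 than in TMC2 (95.6%), and for 426 of the 472 that were at least 4-fold lower (90.3%). These genes were picked for a wide gap between TMC2 and TMC4, which leaves room for any type to lie between. Only TMC3 was counted in this way, so the shares do not set it apart from the other types.

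Alk and Ncam2 were among the 12 genes by which TMC4 led the compared types most, and Slc7a11, Tnn, Dcc and Fgf23 came before both. Slc7a11, the cystine-glutamate exchanger, stood at 111 CPM in TMC4 against 6.82 in TMC3, 4.15 in vSMC/PC and 1.11 to 1.16 in the others, a ratio of 16.2 (12.8 to 20.9) that is 10.1 with a mean of the cells' CPM. In the 16 annotated types Slc7a11 was higher still in the cells named thymocytes, at 751 CPM. Tnn, the matrix protein tenascin-N, stood at 60.4 CPM against 5.93 in vSMC/PC and 4.73 in TMC3, a ratio of 10.2 (6.54 to 16.8). Dcc, a netrin receptor of axon guidance, stood at 67.8 CPM against 6.72 in TMC3 and 6.23 in vSMC/PC, a ratio of 10.1 (7.91 to 13.1) that is 6.69 among cells with fewer than 3 UMIs of other lineages. Fgf23, a phosphate-regulating hormone of bone, stood at 178 CPM against 18.0 in TMC3, a ratio of 9.89 (8.52 to 11.5), but endothelial types of the library came close to TMC4, Endo-1 at 130 CPM and Endo-2 at 108. These genes differ in how widely they were seen in the cluster: after thinning, Fgf23 was seen in 12.6% of TMC4 cells, Slc7a11 in 8.47%, Tnn in 8.06% and Dcc in 5.48% (21.4%, 14.2%, 20.6% and 10.5% unthinned), against 0.211%, 1.48%, 0% and 0% of thinned myeloid cells.

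Nrxn3 and Csmd1 were both high and widespread in TMC4. Nrxn3, a presynaptic adhesion receptor, stood at 809 CPM in TMC4, 123 in TMC3, 98.4 in vSMC/PC and at most 4.53 in the others, a ratio to TMC3 of 6.58 (6.20 to 6.97). Csmd1, a large membrane protein of complement-control repeats, stood at 697 CPM in TMC4, 116 in TMC3, 69.4 in vSMC/PC and at most 5.26 in the other compared types, a ratio to TMC3 of 6.01 (5.66 to 6.39). Outside the comparison the epithelial type TEC-a came nearer to TMC4 for Csmd1, at 234 CPM. Thinned to 2000 UMIs, 56.5% of TMC4 cells carried Nrxn3 and 54.3% carried Csmd1, against 12.4% and 13.7% of TMC3 cells and 1.27% and 1.48% of myeloid cells (unthinned 78.2% and 75.5% of TMC4, and 2.77% and 3.37% of myeloid cells). The rest of the 12 leading genes were Ly6k (38.5 CPM, 6.46-fold above TMC3), Cyyr1 (63.4 CPM, 6.38-fold), Cyp2d1 (23.0 CPM, 6.57-fold) and Htr1f, a serotonin receptor (20.7 CPM, 5.90-fold). Cyp2d1 and Htr1f had mean levels under 5 CPM. Cyyr1 was highest in an endothelial type of the library, at 673 CPM, and Ly6k stood at 25.4 CPM in the epithelial type TEC-d.

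The 12 genes with the largest deficit in TMC4 were led by Mfap5, Pdgfrl and Ackr3. Mfap5, a protein of elastic microfibrils, stood at 18.9 CPM in TMC4 against 229 in vSMC/PC, 233 in TMC2, 253 in TMC3, 1004 in TMC1 and 4055 in capFb. The lowest of the 5 types was 12.2-fold (10.5 to 14.2) above TMC4, and 5.00-fold to 6.37-fold above it when cells were thinned, weighted equally or limited to few UMIs of other lineages. Pdgfrl stood at 4.33 CPM, and the lowest compared type, TMC3, was 10.0-fold higher (7.47 to 13.7; 6.34 thinned). Ackr3, a receptor that takes up the chemokine CXCL12, stood at 4.93 CPM against 47.6 in TMC3 and 412 in capFb, 9.65-fold (7.33 to 12.9; 5.01 thinned). Slit3, a guidance ligand, was 8.71-fold (7.77 to 9.79) and Timp3, an inhibitor of metalloproteinases, 8.31-fold (7.43 to 9.32) below the lowest compared type. Col4a5, Fst, Filip1, Pdgfd, Cd34, Col14a1 and Rgs6 complete the 12, and for them the lowest compared type was 6.0-fold (Rgs6) to 7.67-fold (Col14a1) above TMC4.

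**Figure D2:**
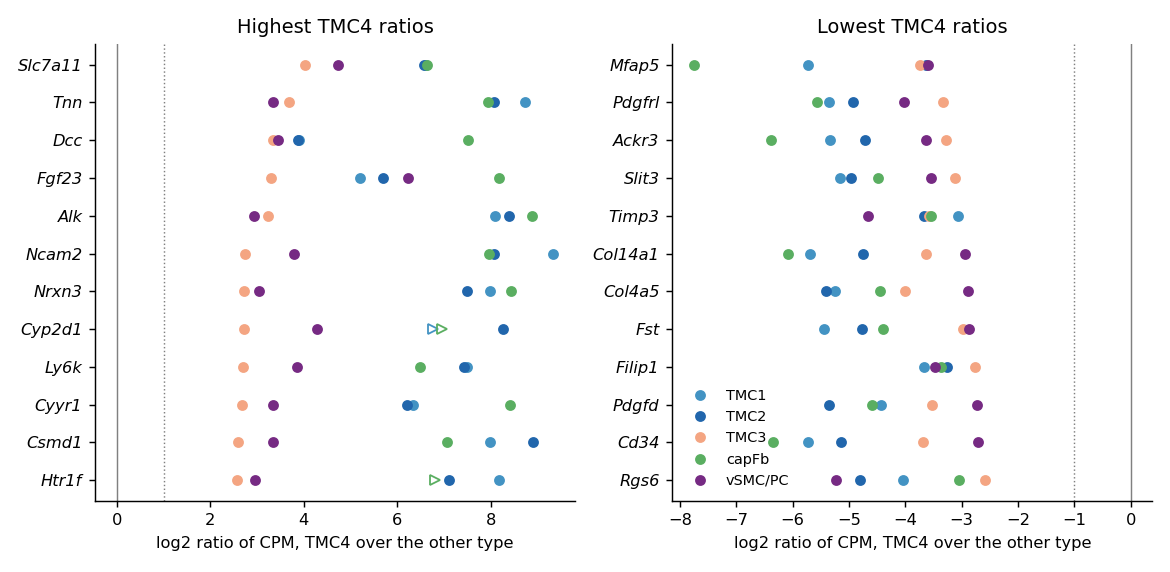
Log2 ratio of CPM of TMC4 over each of the 5 compared types for the 12 genes by which TMC4 led the highest compared type most (left) and the 12 by which it fell farthest below the lowest (right); points are types, open triangles are lower bounds against types with no UMI (a floor of 3 UMIs), and dotted lines mark 2-fold. The nearest type is 16.2-fold away for Slc7a11 and 12.2-fold for Mfap5, and on the left TMC3 and vSMC/PC lie nearest to TMC4 for nearly all genes.

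Among homeostatic chemokines and survival cytokines, 1 of 17 tested genes was at least 2-fold above all 5 types and 1 was below (1.56% and 2.62% of all tested genes), and TMC4 was the highest type for 5, a share close to that over all genes (3316 of 11166). The median log2 ratio of the list ran from -0.25 against TMC3 to 1.10 against capFb, where all tested genes had -0.02 and 0.20. Il7, the cytokine that keeps lymphocytes alive, was the gene above, at 193 CPM in TMC4 against 90.3 in TMC3, 30.8 in vSMC/PC, 21.7 in TMC2, 8.12 in TMC1 and 3.22 in capFb (2.14-fold, 1.98 to 2.31; 1.98 with a mean of the cells' CPM, which ends the call). Il33, an alarmin kept in the nucleus, was highest in TMC4 at 2872 CPM but within 2-fold of TMC3 at 1859 (1.55-fold, 1.52 to 1.57). Cxcl13, the chemokine of B cell follicles, was the gene below, at 12.6 CPM in TMC4 against 39.1 in vSMC/PC and 456 in TMC2 (lowest type 3.10-fold higher, 2.43 to 3.95; 1.88 thinned).

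Of 8 tested inflammatory chemokines none was at least 2-fold above all 5 types and 1 was below, against 1.56% and 2.62% of all genes. Ccl2 and Ccl7, which attract monocytes, were high in the same 3 types as Ccl21: Ccl2 stood at 804 CPM in TMC4, 601 in TMC3, 989 in vSMC/PC and at most 80.6 in the others, and Ccl7 at 672, 509, 304 and at most 36.2. Cxcl10, an interferon-induced chemokine, stood at 105 CPM in TMC4 and 84.5 in vSMC/PC. Cxcl1, which attracts neutrophils, was the gene below, at 11.4 CPM against 38.5 in TMC2 (3.37-fold higher there; 2.05 thinned).

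In the lymphotoxin and TNF receptor list, TMC4 was the highest type for 11 of 20 tested genes, against 3316 of all 11166. The genes at least 2-fold above and below all 5 types were 1 each, and 2 each in thinned cells, against 1.56% and 2.62% of all genes. Map3k14, which encodes NIK, the kinase that starts the non-canonical NF-kB pathway, stood at 58.6 CPM in TMC4 against 27.4 in TMC3, 16.3 in TMC1, 16.0 in TMC2, 15.1 in vSMC/PC and 10.8 in capFb (2.14-fold, 1.86 to 2.47; 1.96 with a mean of the cells' CPM, which ends the call). Traf3, an adaptor that promotes the destruction of NIK, stood at 203 CPM against 105 in TMC3 (1.93-fold, 1.79 to 2.07), and Traf1 at 44.8 against 24.1 (1.86-fold, 1.60 to 2.17). Nfkbia, the inhibitor that NF-kB itself induces, was not highest in TMC4, with 347 CPM against 505 in TMC3 and 464 in vSMC/PC. Tnfrsf11b, the decoy receptor that neutralises RANKL, was the gene below: 4.41 CPM in TMC4, 12.7 in TMC2, 28.1 in TMC3, 43.8 in TMC1, 48.9 in vSMC/PC and 742 in capFb. The lowest of these was 2.88-fold above TMC4.

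Of 14 tested adhesion and organiser genes of lymphoid stroma, 3 were at least 2-fold above all 5 types and 3 below, against 1.56% and 2.62% of all genes. With mitochondrial, ribosomal protein and haemoglobin genes left out of the totals 5 were above. Clu, the secreted chaperone clusterin, stood at 3793 CPM in TMC4, 1080 in vSMC/PC, 624 in TMC3, 112 in TMC1, 69.4 in TMC2 and 20.2 in capFb (3.51-fold, 3.39 to 3.63). Mfge8, which bridges dying cells to phagocytes, stood at 3843 CPM in TMC4, 1292 in vSMC/PC, 948 in TMC3 and at most 272 in the others (2.97-fold, 2.88 to 3.07). Enpp2 encodes autotaxin, the enzyme that makes the lipid that guides lymphocyte movement. It stood at 848 CPM in TMC4 and at 103 to 234 in the others (3.62-fold, 3.47 to 3.79). The 3 genes below were Ackr3, described above, Cd55 and Ackr2. Cd55, a complement decay factor, had 9 UMIs (0.779 CPM against 3.93 in TMC2 and 259 in capFb), and Ackr2, an atypical chemokine receptor, had 2 UMIs (the lowest type 9.74-fold higher, 2.55 to 82.9; 5.26 among cells with few UMIs of other lineages).

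The list of Alk, its ligands and neural adhesion or trophic genes had 10 tested members. Above all 5 types were 2, Alk and Ncam2, which are themselves markers of TMC4. Below all 5 were 2 (1 in thinned cells and 1 among cells with few UMIs of other lineages). Over all genes 1.56% were above and 2.62% below. The list's median log2 ratio was below 0 against 4 of the 5 types (-0.74 against TMC2 to -0.19 against vSMC/PC) and 0.95 against capFb. The tested genes did not move as a block with Alk. Ptn, the growth factor pleiotrophin, stood at 925 CPM in TMC4 against 3309 in TMC2 and 2055 in TMC3. Gfra1, a receptor for the neurotrophic factor GDNF, had 3 UMIs in TMC4 and stood at 36.1 CPM in TMC1 (lowest type 5.71-fold above TMC4, 1.11 to 36.8), and Nrcam had 4 UMIs.

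TMC4 carried less of the common fibroblast genes than the other TMC types. Of 14 mesenchymal identity genes none was 2-fold above or below all 5 types, and the median log2 ratio was -1.81 against TMC1, -1.15 against TMC2 and -0.03 against vSMC/PC. Dcn, the collagen-binding proteoglycan decorin, stood at 2026 CPM in TMC4, 2565 in vSMC/PC, 8964 in TMC3 and 14278 to 21263 in the others. Col1a1, a chain of type I collagen, stood at 757 CPM in TMC4, 996 in vSMC/PC, 1797 in TMC3 and 13156 in capFb. Which of TMC4 and vSMC/PC is the lower depends on the processing: with cells thinned, vSMC/PC over TMC4 was 0.837 for Dcn and 0.744 for Col1a1. Pdgfrb, the growth factor receptor of perivascular cells, was highest in TMC4 at 534 CPM, against 402 in vSMC/PC, 356 in TMC3 and 15.7 in capFb (1.33-fold, 1.25 to 1.41).

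Mural cell genes placed TMC4 between vSMC/PC and the fibroblasts. Of 15 tested, TMC4 was neither the highest nor the lowest type for any. In TMC4 10 were at least 2-fold lower than in vSMC/PC, where 8.12% of all genes were. At least 2-fold higher were 12 against TMC1, 12 against TMC2 and 14 against capFb. Over all genes these shares were 11.2%, 10.6% and 16.4%. Tagln, an actin-binding protein of smooth muscle, stood at 4114 CPM in TMC4, 5342 in vSMC/PC, 1544 in TMC3 and 18.6 to 19.7 in the others. Des, the muscle filament protein desmin, stood at 644 CPM against 1219 in vSMC/PC, and Kcnj8 and Abcc9, the pericyte potassium channel pair, at 305 and 524 against 451 and 686.

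Of 15 tested capsular and adventitial fibroblast genes, 10 were at least 2-fold below all 5 types, against 2.62% of all genes, and the median log2 ratio was -6.25 against capFb, -4.01 against TMC1 and -1.78 against TMC2. The list includes genes that capFb was named for, so its position against capFb is a description of the clusters. Pi16, a marker of adventitial fibroblasts, stood at 18.5 CPM in TMC4, 39.2 in TMC2, 177 in vSMC/PC, 217 in TMC3, 371 in TMC1 and 4894 in capFb (lowest type 2.12-fold higher, 1.82 to 2.46). Dpp4, a peptidase on the surface of adventitial fibroblasts, stood at 3.63 CPM against 29.1 to 820 in the others (7.99-fold; 2.82 thinned), and Cd248 at 17.6 against 89.0 to 886 (5.07-fold; 3.25 thinned). Cd34, a sialomucin of adventitial fibroblasts and endothelium, stood at 13.4 CPM against 87.5 to 1097 (6.52-fold; 3.62 thinned). The calls of Sema3c and Clec3b depended on the processing. Sema3c stood at 3.67-fold, and 1.45-fold among cells with few UMIs of other lineages. Clec3b stood at 2.77-fold, with 1.98 in thinned cells and 1.94 among cells with few UMIs of other lineages.

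Of 25 fibrillar and reticular matrix genes 4 were below all 5 types (Col14a1, Eln, Fbln2 and Fbln5) and none above, and TMC4 was the lowest type for 10, against 2.62% below all 5 and 2312 of 11166 lowest over all genes. Col14a1, a collagen that sits on fibrils, stood at 24.4 CPM against 187 in vSMC/PC and 1657 in capFb, and Eln, elastin, at 46.6 against 112 in TMC3 (2.40-fold; 1.91 thinned). Sparc, a collagen-binding protein, stood at 1737 CPM in TMC4 and at 3155 or more in each of the others. Of 20 basement membrane genes 4 were below all 5, and 2 in thinned cells and 2 among cells with few UMIs of other lineages. They include Lama2, a laminin chain of muscle and stroma (152 CPM against 340 in vSMC/PC and 934 to 1806 in the others; 2.24-fold, 1.90 thinned), and Col4a6 with 4 and Lamc3 with 2 UMIs in TMC4. Col18a1, the source of endostatin, was highest in TMC4 at 506 CPM, against 259 in vSMC/PC and 248 in TMC3 (1.95-fold, 1.82 to 2.10).

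In the BMP and FGF list of 18 tested genes, 5 were below all 5 types and 1 above, against 2.62% and 1.56% of all genes. Grem1, a secreted blocker of BMP ligands, was the gene above, at 81.2 CPM in TMC4 against 32.6 in vSMC/PC, 23.5 in TMC3, 8.88 in TMC2, 3.70 in TMC1 and 0.248 in capFb (2.49-fold, 2.04 to 3.06). The 5 below (3 in thinned cells) were Bmp7, Chrdl1, Fst, Fgf10 and Fgf18. Chrdl1, another BMP blocker, stood at 2.86 CPM against 24.7 in TMC3 and 101 in TMC1 (8.65-fold), Fst, the activin blocker follistatin, at 10.2 against 75 in vSMC/PC (7.35-fold, 5.88 to 9.22), and Fgf18 at 1 UMI. Fgf10 at 4.50 CPM was 2.44-fold below vSMC/PC, and 1.09-fold in thinned cells.

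Of 12 tested Wnt ligands, R-spondins and antagonists 3 were below all 5 types (2.62% of all genes were), all of them secreted Frizzled-related proteins: Sfrp1 (27.3 CPM against 124 in vSMC/PC and 1789 in TMC2), Sfrp2 (2.42 against 21.1) and Sfrp4 (5.45 against 23.4). Dkk2, another Wnt antagonist, was highest in TMC4, at 554 CPM against 396 in TMC2 (1.40-fold, 1.36 to 1.44). Of 16 tested TGF-beta, PDGF, VEGF and angiopoietin signals 2 were below all 5 types, Pdgfd (5.97 CPM against 39.4 in vSMC/PC) and Tgfb3 (7.44 against 17.2), and none was above. Igf1, a trophic hormone made by fibroblasts, stood at 387 CPM in TMC4 against 322 in vSMC/PC and 825 to 2565 in the others.

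Antigen presentation genes were higher in TMC4 than in any compared type for 8 of 16 tested (3316 of 11166 over all genes), and 1 passed 2-fold (1.56% of all genes). Nlrc5, the transactivator of MHC class I genes, stood at 54.0 CPM in TMC4 against 25.9 in TMC3 and 5.70 to 9.19 in the others (2.08-fold, 1.80 to 2.41; 1.91 in thinned cells, which ends the call). B2m, the light chain of class I molecules, stood at 7777 CPM against 5897 in TMC3 and 3538 to 4582 in the others (1.32-fold, 1.31 to 1.33), and Tap1, Tap2 and Psmb9, which make and carry class I peptides, led TMC3 by 1.42-fold, 1.57-fold and 1.25-fold. The list's median log2 ratio was above 0 against all 5 types, from 0.22 against TMC3 to 0.74 against TMC2. Not all members were raised: against vSMC/PC 4 of the 16 were at least 2-fold higher in TMC4 and 4 lower. Over all genes these shares were 8.49% and 8.12%.

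Of 16 tested complement genes 1 was above all 5 types and 2 below, against 1.56% and 2.62% of all genes. C2, a component of the classical pathway, stood at 959 CPM in TMC4 against 469 in TMC3 and 241 to 371 in the others (2.04-fold, 1.98 to 2.11; 1.99 with a mean of the cells' CPM, which ends the call). Cfb, its counterpart in the alternative pathway, went the other way: 18.4 CPM in TMC4, 58.7 in vSMC/PC, 149 in capFb, 237 in TMC3, 796 in TMC2 and 1196 in TMC1. The lowest of these was 3.19-fold (2.61 to 3.88) above TMC4, and 1.71-fold with a mean of the cells' CPM and 1.88-fold in thinned cells.

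Of 12 tested genes of retinoic acid and glucocorticoid steps 2 were below all 5 types, against 2.62% of all genes. Dhrs3, which returns retinal to retinol, stood at 3.63 CPM against 14.4 in TMC3. Crabp1, a carrier of retinoic acid, stood at 2.42 CPM against 11.5 in capFb and 294 in TMC2 (1.94-fold in thinned cells). Rarb, a retinoic acid receptor, was highest in TMC4 at 187 CPM, 1.44-fold above TMC3. Nr3c1, the glucocorticoid receptor, had a like level in all 6 types, at 312 CPM in TMC4 and 276 to 379 in the others. Of 26 tested mesenchymal transcription factors none was above all 5 types and 2 were below, against 1.56% and 2.62% of all genes. Ebf2 stood at 26.0 CPM against 129 in vSMC/PC and 746 in capFb, and Klf4 at 32.7 against 71.2 in vSMC/PC (2.18-fold, 1.84 to 2.56; 1.73 thinned). Zeb2, a repressor of epithelial genes, was highest in TMC4 at 2256 CPM against 1741 in vSMC/PC (1.30-fold, 1.26 to 1.33).

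Markers of other lineages were summed beside these results. Over 10 genes each, thymocyte markers came to 8.48 CPM in TMC4 (7.73 to 21.6 in the compared types), epithelial markers to 52.5 (42.5 to 72.3) and endothelial markers to 40.6 (53.9 to 206). All 10 genes of each of these 3 lists had UMIs in TMC4. Myeloid markers came to 81.7 CPM, above the 10.5 to 45.4 of the compared types, with Mpeg1, a pore-forming protein of macrophages, at 55.2 CPM against 26.2 in TMC3 (2.11-fold) and Aif1 at 16.2 against 3.26 in vSMC/PC (2.92-fold to 4.96-fold across alternatives). In contrast Lyz2, the lysozyme of macrophages, stood at 4.85 CPM in TMC4 and 4808 in myeloid cells, and Ptprc, which encodes CD45, at 1.21 and 255. A set of 33 markers of other lineages was used to filter cells: 1127 of the 1249 TMC4 cells had fewer than 3 UMIs of it, and 664 of the 1358 capFb cells did. With the shorter marker list added after seeing the data, 1203 TMC4 and 1308 capFb cells had fewer than 3 UMIs. The low capFb count thus rests on the markers that the shorter list leaves out. B cell markers came to 1101 CPM, nearly all of it Ebf1 at 1086 CPM, a factor that the compared types also held at 849 to 2310. Glial and mesothelial markers came to 25.2 CPM, within the 19.9 to 168 of the compared types. Of these markers 1 of 3 tested was at least 2-fold below all 5 types, against 2.62% of all genes. Handling and stress genes came to 4672 CPM in TMC4, within the 3633 to 10095 of the compared types. Of the 16 genes 4 were at least 2-fold lower than in TMC3 and 8 lower than in vSMC/PC, against 6.34% and 8.12% of all genes. Against TMC2 the lean was the other way, with 4 of the 16 at least 2-fold higher in TMC4 and none lower. Over all genes 10.6% were higher and 8.53% lower than in TMC2. Cell cycle genes came to 85.9 CPM, within the 50.6 to 90.4 of the others. The part of such RNA in the levels above was not tested.

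Within TMC4 the levels varied widely from cell to cell. At 2000 UMIs a cell, Ccl21 had quartiles of 1, 9 and 49 UMIs, a highest value of 385, and no UMI in 24.8% of the 1240 cells. Of TMC3 cells 11.2% and of vSMC/PC cells 20.5% reached the TMC4 median of 9. Ccl19 was more even, with a median of 16, a 10th percentile of 2, a 90th of 58 and no UMI in 3.63% of cells, and 13.6% of TMC3 and 26.2% of vSMC/PC cells reached its median. Across TMC4 cells Ccl21 and Ccl19 had a Spearman correlation of 0.449 and a Pearson correlation of 0.344, as a description over 1240 cells of 1 library at 1 depth.

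The 174 genes above all 5 types, taken as a sum, set nearly every TMC4 cell apart. TMC4 cells held a median of 64 UMIs of these genes in 2000, with a lowest of 16 and a highest of 168, against medians of 17 in TMC3, 8 in vSMC/PC, 5 in TMC1, 5 in TMC2 and 4 in capFb. The 10th percentile of TMC4 was 40 UMIs, which 7.36% of TMC3 and 8.20% of vSMC/PC cells reached and no cell of TMC1, TMC2 or capFb did. The genes were chosen on these cells, so this separation describes the clusters and tests nothing. The 293 genes below all 5 gave medians of 4 UMIs in TMC4, 22 in TMC3, 31 in vSMC/PC, 68 in TMC2, 83 in TMC1 and 123 in capFb.

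**Figure D3:**
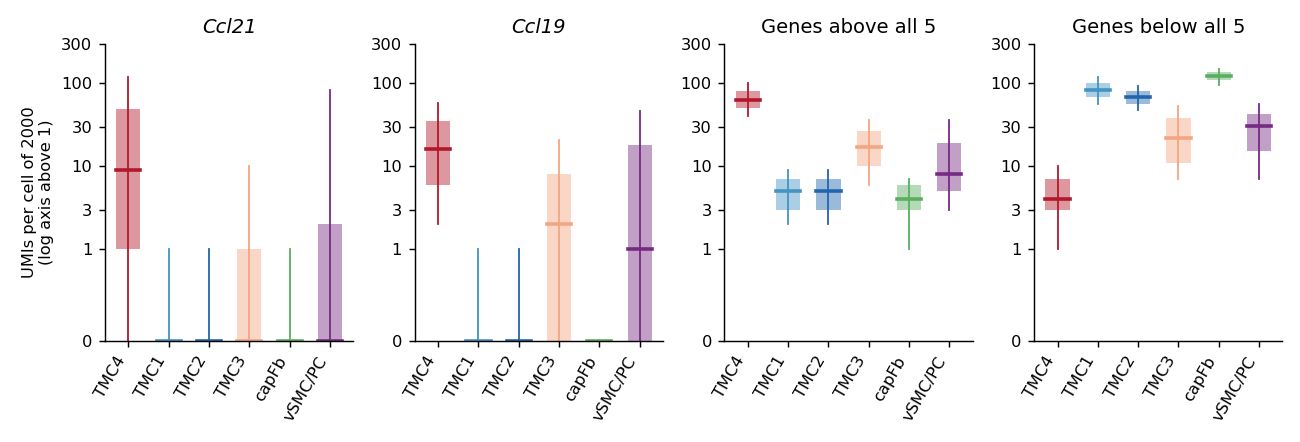
UMIs per cell on an axis that is logarithmic above 1, with each cell thinned to 2000 UMIs, for Ccl21, Ccl19 and the sums of the genes above and below all 5 compared types; boxes span the quartiles, lines the 10th to 90th percentile and bars the median of the cells of each type. TMC4 medians are 9 UMIs for Ccl21, 16 for Ccl19, 64 for the genes above and 4 for the genes below.

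Because Ccl21 varied most, the 312 TMC4 cells with at least 49 of 2000 UMIs, the upper quartile, were set beside the 308 with none, leaving Ccl21 out of the totals. This is a range of a continuous level and not a pair of types: 40 cells lay within 5 UMIs of that limit and 167 had 1 or 2 UMIs. Before thinning, the median cell had 10167 UMIs in the Ccl21-rich cells and 8647 among those with none. Of 11165 genes, 232 (2.08%) were at least 2-fold higher in the Ccl21-rich cells and 478 (4.28%) lower. The genes and lists named for this split were chosen after their values were seen.

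Of the mural list 4 of 15 tested genes were at least 2-fold higher in the Ccl21-rich cells and 1 lower. Of the adhesion and organiser list 5 of 14 were higher and 2 lower, against 2.08% and 4.28% of all genes. Other lists leaned the other way. Lower were 4 of 8 inflammatory chemokines, 4 of 10 genes of the Alk and neural list and 5 of 25 fibrillar matrix genes, each with 1 higher. Of 20 basement membrane genes 4 were lower and 0 higher. Dcc stood at 170 CPM in the Ccl21-rich cells and 10.2 in cells with none (16.7-fold, 11.4 to 25.3), Myh11, a myosin of smooth muscle, at 85.8 and 17.5 (4.91-fold, 3.60 to 6.82), and Acta2, smooth muscle actin, at 213 and 76.8 (2.77-fold), while Tagln differed by 1.87-fold. Grem1 stood at 171 and 45.1 CPM (3.80-fold, 3.12 to 4.65), Clu at 6950 and 2335 (2.98-fold, 2.89 to 3.06), Ccl19 at 22074 and 8866 (2.49-fold, 2.45 to 2.53) and Cxcl12, the chemokine of CXCR4, at 1214 and 534 (2.27-fold). Alk differed less, at 235 and 131 CPM (1.80-fold, 1.59 to 2.05), and Vcam1 (1.31-fold), Il7 (1.18-fold), Relb (1.09-fold), Csmd1 (1.05-fold), Nrxn3 (1.01-fold) and Enpp2 (0.931-fold) less still.

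Ncam2 ran against Ccl21 inside TMC4. It stood at 94.7 CPM in the Ccl21-rich cells and 241 in cells with none (0.394-fold, 0.342 to 0.452), so 2 markers of the same cluster leaned towards different cells of it. Also lower in the Ccl21-rich cells were Pde10a (6.70 against 70.6 CPM), Lsamp, a neural adhesion protein (56.4 against 374), Cxcl10 (31.9 against 193), Col15a1, a collagen of basement membrane zones (18.8 against 111), and Lama2 (54.5 against 254). Of the 174 genes above all 5 types 13 were at least 2-fold higher and 8 lower in the Ccl21-rich cells, and of the 293 below all 5 47 were higher and 80 lower. The median log2 ratio was -0.05 for the first set, -0.08 for the second and -0.09 for all genes tested.

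**Figure D4:**
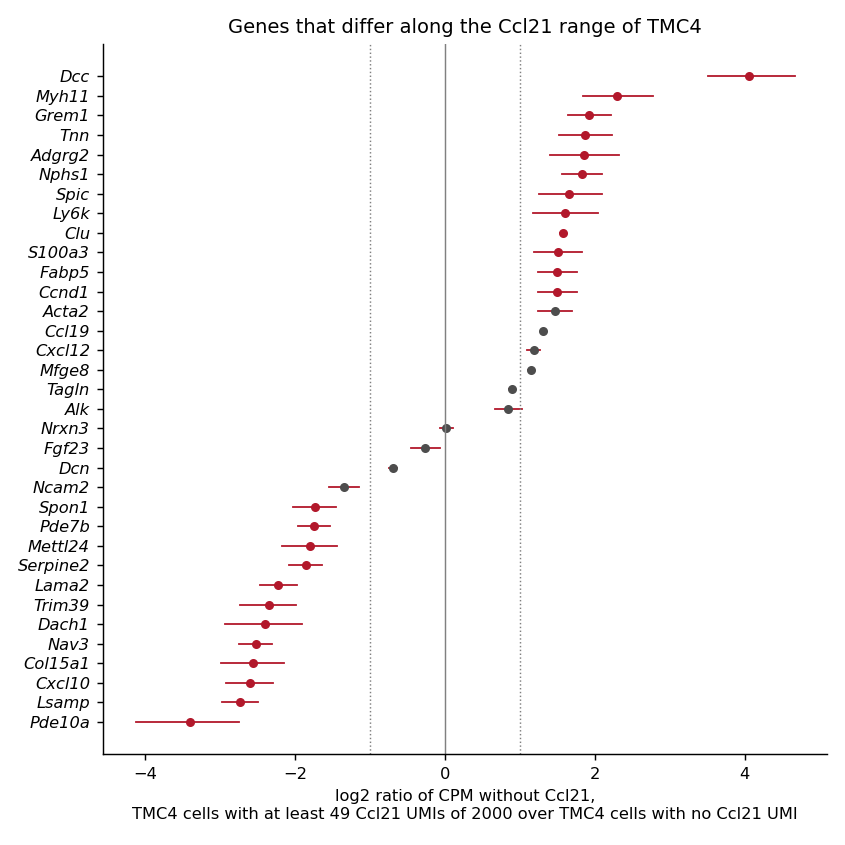
Log2 ratio of CPM, TMC4 cells with at least 49 Ccl21 UMIs (312 cells) over TMC4 cells with no Ccl21 UMI (308 cells), with exact 95% intervals for counting error; red points are the 12 genes with the largest ratio in each direction, grey points are other genes chosen after the values were seen, and dotted lines mark 2-fold. Dcc is farthest to the right, Nrxn3 lies at equal level, and Pde10a is farthest to the left.

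In the section, the label TMC4 was concentrated in the medulla. The 592087 labelled bins of 10 µm comprised 59534 medullary bins (10.1%). A bin can hold parts of several cells, and the authors gave each up to 3 labels by robust cell type decomposition (RCTD). TMC4 was the first label of 249 bins, of which 167 lay in the medulla (67.1%, 60.9 to 72.9%), 44 in the cortex and 38 in the capsular region. Its share of bins was 18.2-fold (14.0 to 23.7) higher in the medulla than elsewhere. The bins were deeper than most, with a median of 496 UMIs against 326 over all labelled bins.

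Each of the other mesenchymal labels lay mostly outside the medulla. TMC3 had 16.5% of 266 bins there, vSMC_PC 23.3% of 395, TMC1 1.33% of 75, and TMC2 and capFb 0 of 45 and 0 of 51 (upper limits 7.87% and 6.98%). By the distance to the capsule that the authors deposited, TMC4 bins lay a median of 353 µm away and vSMC_PC bins 102 µm. The median was 0 µm for TMC1, TMC2, TMC3 and capFb. Among segmented cell bins TMC4 had the smallest median area of the 6 labels, 46.0 µm² over 599 cell bins, against 52.0 (TMC2) to 82.0 µm² (capFb) and 55.0 µm² over all labelled cell bins.

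The label TMC4 rarely led a bin. In bins that it led, its weight, the fraction of the bin's RNA that the decomposition gives to it, had a median of 0.405, with 0.324 and 0.509 as 10th and 90th percentiles over 247 bins. It was the second label of 4518 bins, with a median weight of 0.150, and the third of 447. Counting a label in any place, 5214 bins held TMC4 and 49.0% of them (47.6 to 50.4%) lay in the medulla. They were 0.694% of capsular bins, 0.441% of cortical bins, 2.90% (2.74 to 3.07%) of mECA bins and 7.18% (6.82 to 7.55%) of mEFA bins. These are the 2 medullary regions that the authors deposited, and the letters are read from the study's title as medulla that contains epithelium and medulla free of it.

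Stromal labels seldom shared a bin, and this bears on how shares of TMC4 can be set side by side. Of 246062 bins with a stromal label in any place, 1767 had 2 or more. Of 24560 bins with a stromal first label and a second label, 9 had a second label that was also stromal, whereas of 224094 bins with a thymocyte first label and a second label, 221134 had a stromal second label. TMC4 was second to an epithelial first label in 1 of 853 mECA bins and 0 of 1213 mEFA bins in which it came second, although epithelial labels came first in 22.6% of all mECA bins. Counting all places, 226 of the 1165 TMC4 bins of mECA and 104 of the 1390 of mEFA also held an epithelial label, and epithelial labels covered 86.6% of mECA and 64.5% of mEFA bins.

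Among bins with a stromal label other than an epithelial one, TMC4 was in 45.6% of 2553 mECA bins (43.7 to 47.6%) and 48.5% of 2864 mEFA bins (46.7 to 50.4%), a ratio of 1.06 (1.00 to 1.13). Its share on this denominator was 14.7% of 12258 cortical bins and 8.83% of 9696 capsular bins. Over all labelled bins the mEFA to mECA ratio of TMC4 in any place was 2.48 (2.30 to 2.67). The medullary excess thus held on both denominators (3.89-fold over the rest of the section on the narrower one), and the difference between the 2 medullary regions was near 1 on the narrower one. The part of the pairing of labels in the larger ratio was not tested.

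Around TMC4 bins of the medulla, the other non-epithelial stromal labels counted had a larger share than in the medulla as a whole, though they stayed few. Within 30 µm of the 167 medullary TMC4 bins 4460 labelled medullary neighbours were counted, a bin near several TMC4 bins once for each. Ratios set the share of a label among these neighbours against its share in the medulla. The ratio was 3.68 (2.70 to 4.90) for TMC4 itself, 4.21 (2.82 to 6.03) for vSMC_PC, 3.41 (2.50 to 4.54) for vEC and 2.73 (1.25 to 5.18) for TMC3. The label vEC is an endothelial subset, and no other endothelial label was counted. Of the neighbours vSMC_PC made up 0.650%, vEC 1.03% and TMC3 0.202%, whereas mature single-positive thymocytes made up 31.2% and Treg 13.3%. For thymocyte and epithelial labels the ratios were nearer to 1, at 1.20 (1.14 to 1.25) for mature single-positive thymocytes, 1.14 (1.06 to 1.23) for Treg, 1.02 (0.869 to 1.18) for mTEC1 and 0.802 (0.706 to 0.907) for mTEC2. Bins side by side draw on the same tissue, and some bins are counted more than once, as are pairs of TMC4 bins. Both make the counting intervals of these ratios too narrow.

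**Figure D5:**
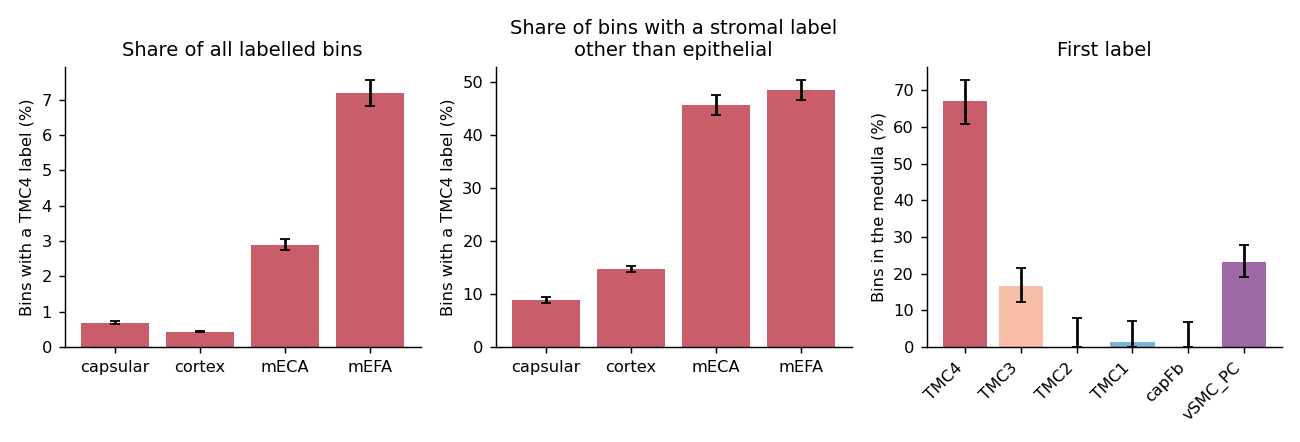
The label TMC4 in the section, in percent with exact 95% intervals for counting error: bins that hold TMC4 in any place as a share of all labelled bins of a region (left) and of its bins with a stromal label other than epithelial (middle), and the share of each mesenchymal first label that lies in the medulla (right). On the left mEFA reaches 7.18% and mECA 2.90%, in the middle mECA reaches 45.6% and mEFA 48.5%, and on the right TMC4 stands at 67.1%.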

How the data were processed

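Members and gene lists were chosen with earlier results of these data known, so no list is independent evidence. The stromal library was deposited as UMI counts by gene and cell barcode, made by the authors with Cell Ranger 8.0.0 on mRatBN7.2, per the submitters' processing notes, which also name Seurat 5.3.0. Cell types, the percent of mitochondrial UMIs per cell and the regions of the section were taken as the authors deposited them; the rule behind the regions is not given in the sources used here. Bin UMIs are counts deposited by the authors, areas of segmented cells are deposited in chip units (signal not normalized), RCTD weights are fractions given by the authors, and the deposited region scores were not used beyond the regions themselves. Chip units were taken as 0.5 µm.

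UMIs were summed over the cells of a type and divided by the type's total (CPM). Genes with a mean of at least 5 CPM over the 6 types were tested, and a gene was called at 2-fold. A ratio against a type with no UMI was computed against 3 UMIs. List medians add 0.5 CPM to both sides. Intervals are exact Poisson, Clopper-Pearson or conditional intervals for a ratio of counts at 95%, and log-normal for ratios of shares of bins. With 1 sample per group, cells are not replicates and no p-value was computed. Cells were thinned once to 2000 UMIs with seed 11. No doublet caller was run: cells were filtered instead on fewer than 3 UMIs of 33 markers of other lineages as an alternative, which left 1127 TMC4 cells. The stromal and thymocyte libraries shared 38 barcodes, 3 of them TMC4 cells.

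Genes that could be named were picked by rule, 142 in all, and the text describes only part of them. They are the 5 markers and the 12 genes of largest ratio of TMC4 to the highest compared type (at least 100 UMIs and in at least 10% of TMC4 cells). To these were added the 12 of largest ratio of the lowest compared type to TMC4 (in at least 10% of cells of each). From each list came the members called against all 5 types, the 2 of highest TMC4 level and up to 4 of largest ratio. Among the lists, 3 genes are not reported here and are in none of the list counts. Genes and lists named for the Ccl21 split and the motif CATAAAT were chosen after values or sequences were seen. The lists cover chemokines and cytokines, the lymphotoxin and TNF receptor pathway, adhesion and organiser genes, Alk and neural genes, mesenchymal identity, mural, capsular, matrix and basement membrane genes, growth factor families, retinoic acid steps, antigen presentation, complement and transcription factors, and markers of 6 other lineages, cell cycle and handling.

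Alternatives were at least 1000 UMIs per cell, totals without mitochondrial, ribosomal and haemoglobin genes, the mean of the cells' CPM, thinned cells, the filter on other lineages, median-of-ratios size factors, a mean of 1 CPM or no minimum, and for the section cell bins, labels in any place, confident labels, depth, either side of the median x coordinate and radii of 15 and 60 µm. Added after seeing the data were a shorter marker list for the filter, the merged mesenchymal column, cell bins with a label in any place, and bins with a stromal label other than epithelial. Promoter windows were taken from RefSeq (GRCr8): 15 marker and leading genes were looked up and 11 had a window. The calling code was tested on simulated data. Software was Python 3.11.15, pandas 2.3.3, NumPy 2.4.6, SciPy 1.17.1 and matplotlib 3.10.9.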

Additional observations from a re-analysis of the deposited data

Results flagged for a closer look

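Alk, which among the compared types was seen mostly in TMC4 (174 CPM), was also seen in the barcodes of the stromal library that carry no annotation. These 2934 barcodes held 159 Alk UMIs among 8663291, or 18.4 CPM (15.6 to 21.4), in 74 barcodes. A count of 0 would have allowed up to 0.346 CPM at this depth. The barcodes enter no comparison of the report, and what they are was not tested.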

How the results depend on the processing

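No paired analysis was possible because a group held 1 sample only, and no replicate could be left out. There were 216 results and 1593 alternative values. Of 982 gene ratios 22, in 11 genes that were not called (Dcn and Col1a1 among them), crossed 1, and none of the 451 ratios of the 66 called genes did. Under at least 1 alternative 16 of these 66 fell under 2-fold. Of the 982 ratios 61 moved by over 1.5 times, in 37 of 142 genes, and of 450 list counts 37 moved, 23 of them by other changes than the minimum level.

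The minimum level set the counts most. With a mean of at least 1 CPM, 338 genes were above and 458 below all 5 types, and TMC4 was higher and lower for 1976 and 1666 genes against TMC1, 1878 and 1507 against TMC2, 644 and 1210 against TMC3, and 1698 and 1512 against vSMC/PC, with 2841 higher against capFb. With no minimum the counts were 1244 above and 710 below all 5 (63.7% above, against 37.3%), 4867 and 4359 against TMC1, 4790 and 4784 against TMC2, 3034 and 3750 against TMC3 (44.7% higher, against 31.1%), 5960 and 4248 against capFb, and 5280 and 3374 against vSMC/PC; many of these genes rest on few UMIs. Thinned cells gave 1513 genes higher than in vSMC/PC. Size factors in place of totals shifted the median log2 ratio by -0.10 against TMC1 and -0.24 against capFb.

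In the section, the share of TMC4 bins in the medulla and its ratio to the rest were 58.9% and 9.89 for cell bins, 49.0% and 8.60 for labels in any place, 48.0% and 6.37 for cell bins with labels in any place, 76.1% and 49.2 for confident labels, 73.6% and 11.7 for bins at or above the median UMIs, and 73.8% and 26.3 right and 62.0% and 14.0 left of the median x coordinate. The ratio to the rest was 3.89 among bins with a stromal label other than epithelial and 3.18 among such cell bins. The mEFA to mECA ratio was 1.39 (1.02 to 1.89) for first labels, 1.34 (0.969 to 1.86) for confident ones, 1.10 (0.703 to 1.71) left and 1.79 (1.15 to 2.77) right of the median x coordinate, 2.48 in any place, 2.43 for cell bins in any place and 2.71 in the merged column. Within 15 µm the neighbourhood ratios were 9.34 for TMC4, 6.25 for TMC3, 7.48 for vSMC_PC, 5.10 for vEC, 1.31 for mTEC1 and 1.12 for mature single-positive labels. Within 60 µm they were 2.27 for TMC4, 2.22 for vSMC_PC and 1.95 for vEC, and for cell bins 2.31 for TMC4 and 1.92 for vSMC_PC. The cause of these moves was not tested. Bins given 1 type only held 2 TMC4 bins and gave no value. Depth limits genes with few UMIs in TMC4, such as Ackr2, Gfra1 and Fgf18.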
